A study of Zea mays with 12 samples.

Results

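The cytokinin genes described here are *Zm00001d000237*, which the deposited annotation calls cis-zeatin O-glucosyltransferase1 (*cZOG1* below), and *Zm00001d001865*, annotated as cytokinin response regulator1 (*CRR1* below). They are 2 of the 720 genes analysed and were picked by name, one for cytokinin inactivation and one for cytokinin response, with their FPKM (fragment numbers per kilobase of transcript, corrected for library size) across the 12 samples already known. Their own levels and differences are therefore given as a description and carry no test. RNA was sequenced from whole kernels of 4 groups with 3 biological replicates each, *smk7a* at 20 days after pollination (DAP), WT at 20 DAP, *smk7a* at 12 DAP and WT at 12 DAP. *smk7a* is a recessive small-kernel mutant from an ethyl methanesulfonate library in the inbred line B73, and both genotypes carry that background and received no treatment. Both genotypes were sampled within ears of selfed carrier plants (generation M8), because the homozygous mutant gives no normal plant to propagate. A recessive allele leaves heterozygous kernels looking normal, and whether heterozygotes were among the WT kernels is not stated in the sources used here. The kernel samples hold embryo, endosperm and maternal tissue together, so fewer cells of a type and less RNA per cell cannot be told apart in any value below.

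Cytokinins are plant hormones that promote cell division, and in the cereal kernel they are abundant early, while the endosperm divides, and decline as it fills. Their level is set by synthesis, by irreversible breakdown through cytokinin dehydrogenases, and by conjugation to sugars, of which O-glucosylation is reversible and gives a storage form that receptors do not bind. The active hormone is perceived by membrane histidine kinases, and a phosphate passes from them through histidine phosphotransfer proteins to response regulators in the nucleus. The maize enzyme cZOG1 adds glucose to cis-zeatin, a cytokinin with a hydroxylated side chain. Response regulators are the last step of the relay, and the transcripts of those of type A are induced quickly by cytokinin.

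Sequencing depth could be compared only roughly, from 4 to 10 low genes per sample. Their FPKM, taken as the value of a single fragment, had medians of 0.978 to 1.025 times those of the first WT sample at 12 DAP. Ratios far from 1 had been left out beforehand, so these medians do not show that the depths were alike. The summed FPKM of the 720 genes was 4175.0 to 4525.0 in *smk7a* and 2864 to 3257 in WT at 20 DAP, and 5799.6 to 5853 in *smk7a* and 4261 to 4828 in WT at 12 DAP. The genes analysed thus took more of the FPKM in *smk7a* at both stages, and the median gene tested was shifted by 0.53 (log2, *smk7a* over WT) at 20 DAP, by 0.48 at 12 DAP, by -0.44 for 20 over 12 DAP in *smk7a* and by -0.55 in WT. Each fold change of *cZOG1* and *CRR1* below is given on the FPKM as deposited and again after median of ratios scaling, which brings these medians to between -0.02 and 0.01. The 720 genes are only part of the genome, and whether the other genes were shifted in the same way is unknown. Of 3 endosperm marker genes, all were expressed, with summed FPKM of 183 to 322 in *smk7a* and 282 to 331 in WT at 20 DAP, and of 195 to 259 in *smk7a* and 519 to 548 in WT at 12 DAP. Embryo genes were picked by words in their descriptions, which does not show that they mark the embryo. Of these 9 genes, 8 were listed at 0 in every sample. The other one, *Zm00001d000135*, a late embryogenesis abundant protein gene, was at 11.2 to 15.4 FPKM in *smk7a* and 10.03 to 12.7 FPKM in WT at 20 DAP, and at 28.0 to 36.2 FPKM in *smk7a* and 12.4 to 19.9 FPKM in WT at 12 DAP. Between the genotypes, the endosperm sums and *Zm00001d000135* both overlapped at 20 DAP, and neither did at 12 DAP. Between 20 and 12 DAP the endosperm sums overlapped in *smk7a* and not in WT. *Zm00001d000135* was lower at 20 DAP in *smk7a* without overlap and overlapped in WT. The part of these cell types in the results below was not tested.

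*cZOG1*, the inactivating enzyme, was at 6.26, 5.99 and 4.50 FPKM in *smk7a* at 20 DAP, against 1.46, 0.562 and 0.456 FPKM in WT at 20 DAP. All 3 *smk7a* values lay above all 3 WT values, and the lowest *smk7a* sample stood well clear of the highest WT sample. Of the 336 genes tested at 20 DAP, 67.9% were separated upwards in this way. At 12 DAP *cZOG1* was at 0.814, 2.004 and 1.497 FPKM in *smk7a*, against 3.35, 3.30 and 1.85 FPKM in WT. The order of the genotypes was the opposite of that at 20 DAP, but the groups overlapped, because the highest *smk7a* sample exceeded the lowest WT sample.

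The mean level of *cZOG1* was 5.58 ± 0.948 FPKM in *smk7a* and 0.827 ± 0.553 FPKM in WT at 20 DAP (SD, n = 3 each), a ratio of 6.75. On the log2(FPKM + 0.1) scale the difference was 2.76 (SE 0.36), and 2.23 (SE 0.37) after scaling. It was the largest positive fold change of the 336 genes tested at that stage. *cZOG1* passed the filter there mainly through its *smk7a* samples and was picked with these values known, so the rank is a description. At 12 DAP the means were 1.44 ± 0.597 FPKM in *smk7a* and 2.83 ± 0.853 FPKM in WT, which is 1.97-fold lower in the mutant. The log2 difference was -0.96 (SE 0.37) as deposited and -1.42 (SE 0.34) after scaling, the lower direction in both. Across the 4 groups the coefficient of variation of *cZOG1* was smallest in *smk7a* at 20 DAP, at 17.0%, and largest in WT at 20 DAP, at 66.8%, where 1 of the 3 samples stood apart from the other two.

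*CRR1*, the response regulator, was at 0.983, 1.46 and 1.18 FPKM in *smk7a* at 20 DAP, against 0.474, 0.593 and 0.550 FPKM in WT at 20 DAP. The groups did not overlap, as for 67.9% of the genes tested, and every WT sample was below 1 FPKM. At 12 DAP *CRR1* was at 6.21, 10.4 and 5.73 FPKM in *smk7a*, against 6.51, 5.02 and 3.14 FPKM in WT. Here the groups overlapped, since 2 of the 3 *smk7a* samples lay below the highest WT sample and the third stood above all of them.

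The mean level of *CRR1* at 20 DAP was 1.21 ± 0.241 FPKM in *smk7a* and 0.539 ± 0.0602 FPKM in WT (SD, n = 3 each), a ratio of 2.24. *CRR1* did not exceed 1 FPKM in 3 samples of that stage and so was left out of the fit across genes there. Its log2 difference, computed without that filter, was 1.02 (SE 0.17) as deposited and 0.52 (SE 0.19) after scaling. The fold change thus shrank below 2 once the shift of the genes analysed was taken out. At 12 DAP the means were 7.45 ± 2.58 FPKM in *smk7a* and 4.89 ± 1.69 FPKM in WT, a ratio of 1.52. The log2 difference of 0.61 (SE 0.32) was close to the median of 0.48 over all genes tested, and after scaling it was 0.13 (SE 0.28), less than its standard error. Unlike *cZOG1*, *CRR1* thus had its higher mean in *smk7a* at both stages, and the genotypes differed little at 12 DAP relative to the spread between replicates.

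**Figure D1:**
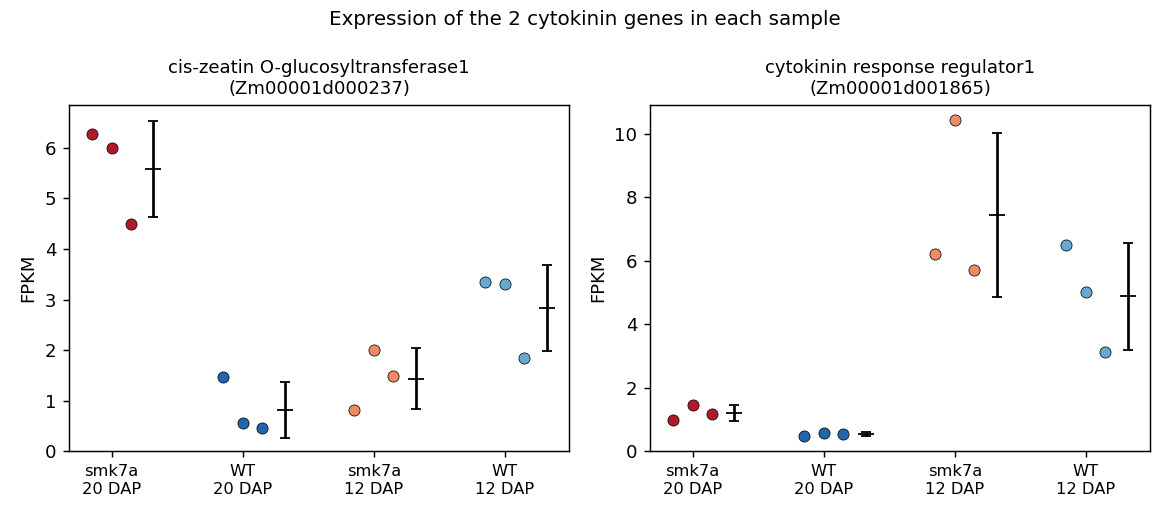
FPKM of *cZOG1* and *CRR1* (vertical axis) in each of the 12 samples (points), grouped by genotype and stage on the horizontal axis, with the mean and SD of each group of 3. *cZOG1* was highest in *smk7a* at 20 DAP, at 4.50 to 6.26 FPKM, while *CRR1* was highest at 12 DAP, at 5.73 to 10.4 FPKM in *smk7a* and 3.14 to 6.51 FPKM in WT.

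Between the stages *cZOG1* went opposite ways in the 2 genotypes. In *smk7a* the mean at 20 DAP was 3.88 times that at 12 DAP, and the 20 DAP values of 4.50 to 6.26 FPKM all lay above the 12 DAP values of 0.814 to 2.004 FPKM. Such a separation upwards was found in 8.79% of the 364 genes tested in *smk7a*. In WT the mean at 20 DAP was 3.42-fold lower than at 12 DAP, and the 20 DAP values of 0.456 to 1.46 FPKM all lay below the 12 DAP values of 1.85 to 3.35 FPKM, a separation downwards that 63.1% of the 344 genes tested in WT showed.

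The log2 fold change of *cZOG1* for 20 over 12 DAP was 1.95 (SE 0.31) in *smk7a* and -1.77 (SE 0.39) in WT, and 2.38 (SE 0.31) and -1.26 (SE 0.38) after scaling. Only 4 of the 364 genes tested in *smk7a* had a larger positive fold change, and 11 of the 344 tested in WT had a more negative one. In WT *cZOG1* passed the filter mainly through its 12 DAP samples. The difference between the 2 stage changes was 3.72 (SE 0.56) as deposited and 3.66 (SE 0.55) after scaling, and of the 375 genes compared 1 exceeded it as deposited and 2 after scaling. A non-overlapping increase in *smk7a* together with a non-overlapping decrease in WT was found in 17 of the 375 genes, or 4.53%. With the change past 2-fold in both genotypes, 4 genes remained, which were *cZOG1*, the phosphorelay gene *Zm00001d000134* described below, *Zm00001d000256*, annotated as probable calcium-binding protein CML21, and *Zm00001d002132*, for which the annotation gives no name. The first gene was picked with this pattern known, and the other three were singled out after their values were seen.

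*CRR1* went the same way in both genotypes. In *smk7a* its mean at 20 DAP was 6.16-fold lower than at 12 DAP, and the highest 20 DAP value of 1.46 FPKM lay below the lowest 12 DAP value of 5.73 FPKM. In WT its mean was 9.07-fold lower, and the highest 20 DAP value of 0.593 FPKM lay below the lowest 12 DAP value of 3.14 FPKM. A separation downwards was common, at 54.1% of the genes tested in *smk7a* and 63.1% of those tested in WT, and 35.7% of the 375 genes showed it in both genotypes.

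In size the stage change of *CRR1* was near the end of the range. Its log2 fold change for 20 over 12 DAP was -2.49 (SE 0.26) in *smk7a*, with 6 of 364 genes more negative. In WT it was -2.91 (SE 0.28), with 1 of 344 genes more negative, and there it passed the filter only through its 12 DAP samples. After scaling the values were -2.07 (SE 0.24) and -2.40 (SE 0.25), which leaves the direction as it was. The 2 stage changes differed by 0.42 (SE 0.39), or 0.39 (SE 0.37) after scaling, about 1 standard error.

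**Figure D2:**
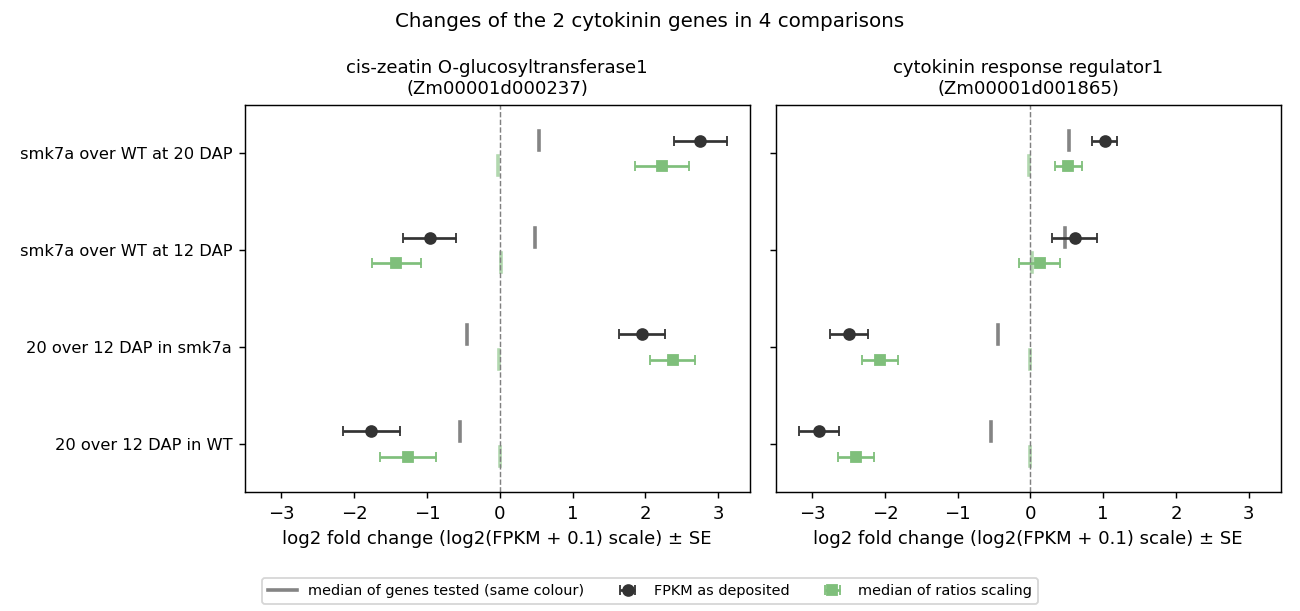
Log2 fold changes with standard errors (horizontal axis, log2(FPKM + 0.1) scale) of *cZOG1* and *CRR1* in 4 comparisons, on FPKM as deposited (circles) and after median of ratios scaling (squares), with the median of the genes tested as a vertical tick. The 2 genes lie on opposite sides of 0 for *smk7a* over WT at 12 DAP (-0.96 and 0.61) and for 20 over 12 DAP in *smk7a* (1.95 and -2.49).

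**Figure D3:**
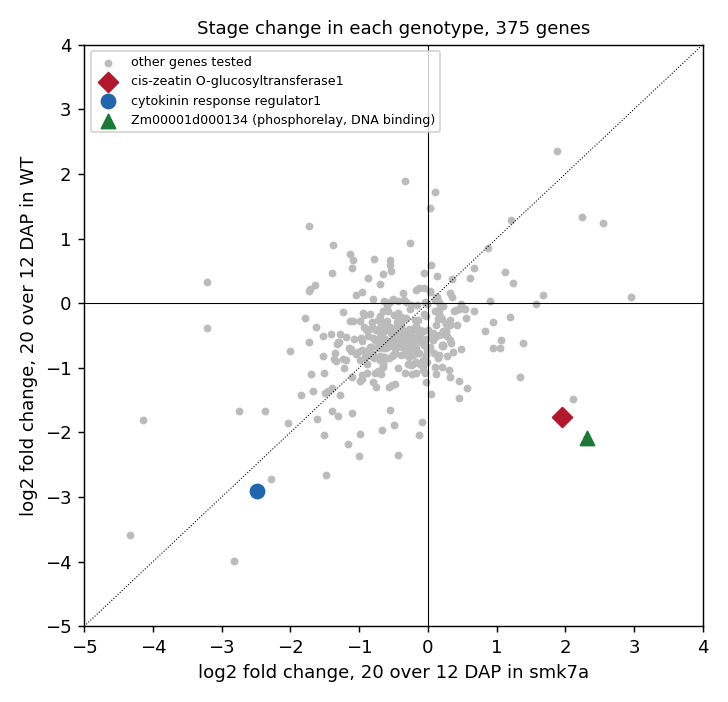
Each of the 375 genes by its log2 fold change for 20 over 12 DAP in *smk7a* and in WT (the axes, log2(FPKM + 0.1) scale). Marked are *cZOG1*, *CRR1* and the phosphorelay gene *Zm00001d000134* (2.32 in *smk7a* and -2.08 in WT). *CRR1* lies in the quadrant of genes lower at 20 DAP in both genotypes (-2.49 and -2.91), and *cZOG1* in the quadrant of genes higher in *smk7a* and lower in WT (1.95 and -1.77).

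Ordered by mean FPKM, *cZOG1* ran from *smk7a* at 20 DAP over WT at 12 DAP and *smk7a* at 12 DAP to WT at 20 DAP. Only the first step was free of overlap, with a ratio of 1.97 between the neighbouring means, whereas WT and *smk7a* at 12 DAP overlapped (ratio 1.97), as did *smk7a* at 12 DAP and WT at 20 DAP (ratio 1.74). *CRR1* ran from *smk7a* at 12 DAP over WT at 12 DAP and *smk7a* at 20 DAP to WT at 20 DAP. Its top 2 groups overlapped (ratio 1.52), while the step from WT at 12 DAP to *smk7a* at 20 DAP, by 4.04 times, and that to WT at 20 DAP, by 2.24 times, did not. The last step is the comparison in which 67.9% of the genes tested were separated in the same direction. For steps that cross both genotype and stage, no share over all genes was computed. The groups were sorted by each gene's own means, so the order is a description.

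Within a sample, both genes ranked in the middle to upper part of the 720 genes. *cZOG1* lay above 71.2% to 77.2% of the 720 genes in the *smk7a* samples and above 48.6% to 58.2% in the WT samples at 20 DAP. At 12 DAP it lay above 46.9% to 53.9% in *smk7a* and 58.2% to 65.8% in WT. *CRR1* was placed above 52.6% to 54.6% of the genes in *smk7a* and 49.4% to 51.1% in WT at 20 DAP. Its place at 12 DAP was above 71.0% to 80.4% in *smk7a* and 67.2% to 78.5% in WT. The genes below include 153 that were listed at 0 in every sample.

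Taken within a sample, the ratio of *cZOG1* to *CRR1* is free of any scaling between samples. FPKM is a value per transcript length, so the 2 genes can be set against each other. The ratio was 6.37, 4.10 and 3.80 in *smk7a* at 20 DAP, against 3.08, 0.948 and 0.829 in WT at 20 DAP. *cZOG1* exceeded *CRR1* in all 3 *smk7a* samples and in 1 WT sample at that stage, and the *smk7a* ratios lay above the WT ratios without overlap. At 12 DAP the ratio was 0.131, 0.192 and 0.261 in *smk7a*, against 0.514, 0.657 and 0.587 in WT. *CRR1* was then the higher gene in all 6 samples, by 3.83 to 7.62 times in *smk7a* and by 1.52 to 1.94 times in WT, again without overlap. Each gene alone overlapped between the genotypes at 12 DAP. The pair was picked with these values known, and no share over other pairs of genes was computed. Both separations of the ratio are therefore a description. The mean log2 ratio was 2.21 ± 0.40 in *smk7a* and 0.43 ± 1.04 in WT at 20 DAP, and -2.42 ± 0.50 in *smk7a* and -0.78 ± 0.18 in WT at 12 DAP (SD, n = 3 each). The mutant therefore held both the highest and the lowest ratios of the 12 samples, at 20 DAP and at 12 DAP.

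**Figure D4:**
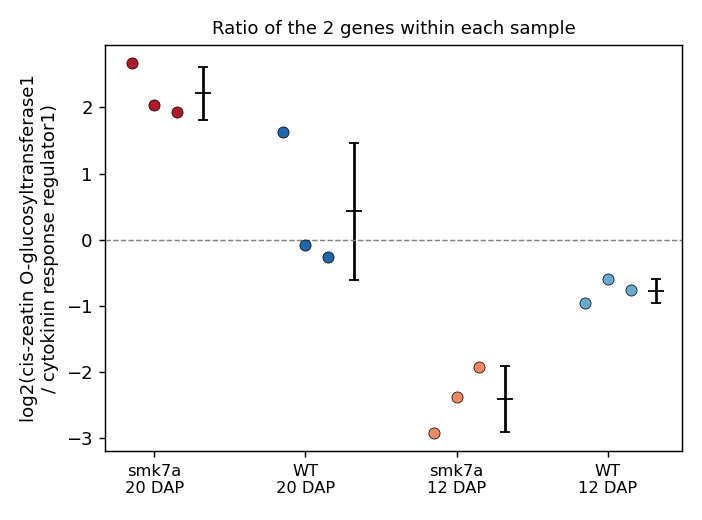
Log2 of the within-sample ratio of *cZOG1* to *CRR1* FPKM (vertical axis) in the 12 samples (points) by group, with the mean and SD of each group of 3. Before the log2, the ratios of *smk7a* at 20 DAP lie between 3.80 and 6.37 and those of *smk7a* at 12 DAP between 0.131 and 0.261, outside the WT samples of the same stage in both cases.

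Genes with the most similar profile were looked up by the root mean square (RMS) difference between log2 values, each centred on the gene's own mean, over the 12 samples and 374 genes. Closest to *cZOG1* was *Zm00001d001895*, annotated as plant UBX domain-containing protein 7, with a difference of 0.688. Its means were 33.3 FPKM in *smk7a* and 10.9 FPKM in WT at 20 DAP, and 15.8 FPKM in *smk7a* and 16.3 FPKM in WT at 12 DAP. It shared the maximum in *smk7a* and the minimum in WT at 20 DAP, but not the genotype difference at 12 DAP. *Zm00001d000361*, annotated as transcription factor MYB104, followed at 0.756 and *Zm00001d000294*, an O-succinylhomoserine sulfhydrylase of sulfur amino acid metabolism, at 0.806. The median over all genes compared was 1.126 for *cZOG1*, so the likeness was moderate.

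Closest to *CRR1* were *Zm00001d002139*, described as a transferase, at 0.562, *Zm00001d002075*, described as the floral homeotic protein APETALA 2, at 0.584, and *Zm00001d000052*, described as a casein kinase II subunit beta-1, at 0.595, where the median was 1.212. *Zm00001d002075* averaged 4.16 FPKM in *smk7a* and 1.62 FPKM in WT at 20 DAP, and 13.3 FPKM in *smk7a* and 5.90 FPKM in WT at 12 DAP. It followed the stage order of *CRR1* with a wider gap between the genotypes at 12 DAP. The profiles of *cZOG1* and *CRR1* differed from each other by 1.686, more than the median gene differed from either.

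The annotation assigned 8 genes to cytokinin metabolism or response, 6 besides the pair described above. Of these, 3 were listed at 0 in all 12 samples. They were annotated as a cytokinin dehydrogenase (*Zm00001d000082*), the enzyme of irreversible breakdown, as a histidine phosphotransfer protein (*Zm00001d000319*), the middle step of the relay, and as phytochrome B (*Zm00001d000219*), a light receptor that carries a cytokinin term in the annotation. The other three passed the filter on low FPKM in at least 1 comparison. Neither of the 2 that were tested at 20 DAP passed both thresholds (adjusted p below 0.05 in limma and fold change above 2), where 15.8% of all genes tested did, and both had an unadjusted p below 0.05. At 12 DAP 1 of 3 was called lower in *smk7a*, beside 4.11% of all genes tested in that direction. None of 2 was called between stages in *smk7a* (1 of them with an unadjusted p below 0.05), where 19.2% of all genes tested were. In WT 1 of 3 was called lower at 20 DAP, beside 15.7% of all genes tested. The gene called at 12 DAP and in WT was the same one. It passed the filter only through its high group, which favours a call, so no excess over these shares can be read from the counts. The median log2 fold change of these genes was 0.17 at 20 DAP and 0.13 at 12 DAP for *smk7a* over WT, below the 0.53 and 0.48 of all genes tested. For 20 over 12 DAP it was -0.21 in *smk7a* and -0.66 in WT, and the stage difference had a median of 0.41 against 0.15 over all genes.

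The gene called in both comparisons was *Zm00001d000134*, whose annotation gives phosphorelay signalling, DNA binding and cytokinin-activated signalling, the terms of a response regulator. It was at 1.06, 0.820 and 1.89 FPKM in *smk7a* and 0.377, 0.374 and 0.382 FPKM in WT at 20 DAP. At 12 DAP it was at 0.328, 0.300 and 0 FPKM in *smk7a*, against 3.24, 1.23 and 1.74 FPKM in WT. *smk7a* was thus the higher genotype at 20 DAP and the lower one at 12 DAP, with no overlap at either stage. Of all genes tested, 67.9% were separated upwards at 20 DAP and 9.04% downwards at 12 DAP. The means of *cZOG1* had the same order of the genotypes within each stage. *Zm00001d000134* exceeded 1 FPKM only in the 3 WT samples at 12 DAP and in 2 *smk7a* samples at 20 DAP. It thus entered each fit only through the groups where it was high, which favours a call, and its differences are given without a p. The log2 difference for *smk7a* over WT at 12 DAP was -2.97 (SE 0.69), and -3.32 after scaling. Without the third *smk7a* sample at 12 DAP, which is listed at 0, it was -2.29, and leaving out any WT sample removed the gene from the fit. For 20 over 12 DAP in WT the difference was -2.08 (SE 0.42), and -1.60 after scaling. The stage changes of the genotypes differed by 4.40 (SE 0.81), or 4.17 after scaling and 3.72 without the sample at 0, and 6.67% of the 375 genes were called in this direction. At 20 DAP between the genotypes, and between stages in *smk7a*, it stayed below the filter, with log2 differences of 1.43 and 2.32.

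The remaining cytokinin genes varied less. *Zm00001d000314*, an F-box gene with a cytokinin signalling term (F-box proteins mark others for degradation), averaged 10.5 FPKM in *smk7a* and 7.24 FPKM in WT at 20 DAP, and 12.5 FPKM in *smk7a* and 11.5 FPKM in WT at 12 DAP. Its log2 difference at 20 DAP was 0.55 (SE 0.13, adjusted p = 0.00676 in limma), below 2-fold, and -0.02 after scaling. For 20 over 12 DAP in WT it was -0.662 (SE 0.183, adjusted p = 0.00922 in limma), also below 2-fold, and -0.115 after scaling. The values of the 2 stages did not overlap there, as for 63.1% of the genes tested. *Zm00001d002122*, an RNA-binding protein gene with the term response to cytokinin, averaged 32.6 FPKM in *smk7a* and 37.7 FPKM in WT at 20 DAP, and 36.8 FPKM in *smk7a* and 33.5 FPKM in WT at 12 DAP. It passed no threshold on the deposited scale and was lower in *smk7a* at 20 DAP after scaling (log2 -0.78, adjusted p = 0.000509 in limma), short of 2-fold. For 20 over 12 DAP in WT it was at 0.196 as deposited and 0.748 after scaling (adjusted p = 0.0269 in limma), also short of 2-fold. Neither of these genes showed the several-fold differences of *cZOG1* or *CRR1* in any of the comparisons.

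**Figure D5:**
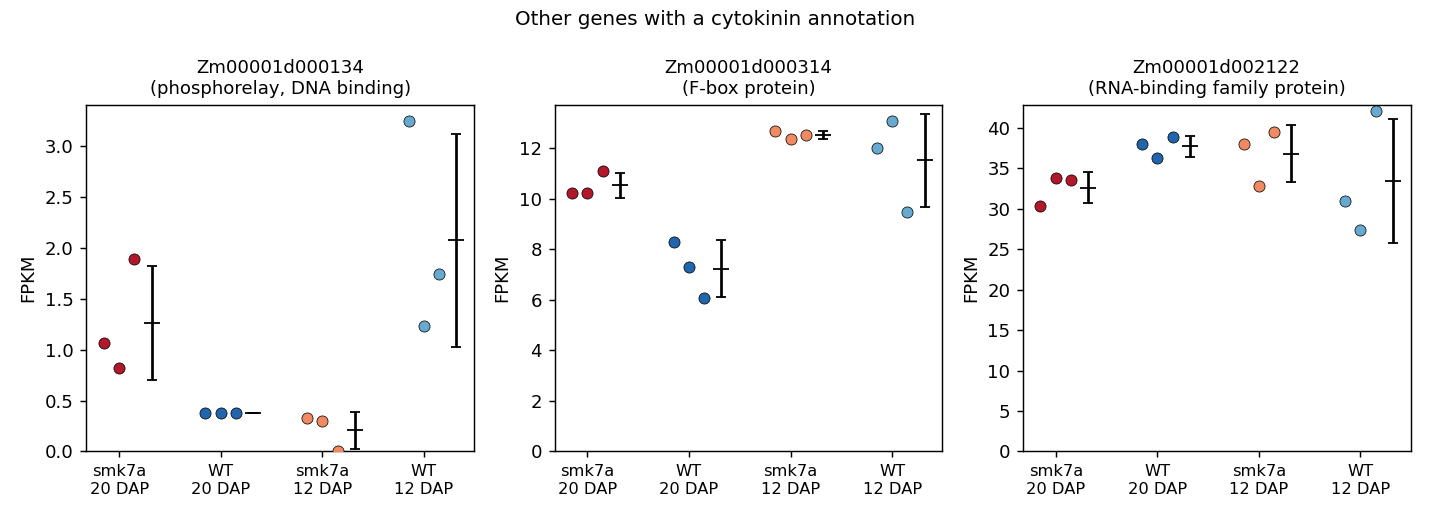
FPKM of the other cytokinin-annotated genes that were tested in at least 1 comparison, in each of the 12 samples (points) by group, with the mean and SD of each group of 3. *Zm00001d000134* is at 0 to 0.328 FPKM in *smk7a* and 1.23 to 3.24 FPKM in WT at 12 DAP. Over the 12 samples *Zm00001d000314* is at 6.08 to 13.1 FPKM and *Zm00001d002122* at 27.4 to 42.0 FPKM.

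Sugar transferases other than *cZOG1* numbered 5 in the annotation, of which 3 were tested. None was called in limma at 20 DAP, where 2 had an unadjusted p below 0.05, and 2 rose in *smk7a* relative to WT at 12 DAP, where 18.6% of all genes tested did. *Zm00001d002063*, annotated as UDP-glycosyltransferase 89B1, averaged 8.38 FPKM in *smk7a* and 2.82 FPKM in WT at 12 DAP (log2 1.54, SE 0.13, adjusted p = 0.000131 in limma), and its neighbour in identifier *Zm00001d002064* averaged 35.2 FPKM in *smk7a* and 13.0 FPKM in WT (log2 1.42, SE 0.31, adjusted p = 0.00725). In *smk7a* both fell between the stages, with log2 changes of -1.53 (adjusted p = 0.000855) and -1.73 (adjusted p = 0.00156) for 20 over 12 DAP, where 16.2% of all genes tested fell and *cZOG1* was higher. After scaling the log2 values of *Zm00001d002063* and *Zm00001d002064* were 1.07 and 0.94 at 12 DAP, where the first was still called, and -1.10 and -1.29 between the stages in *smk7a*, where both were. The median of the 3 genes was 0.47 at 20 DAP and 1.42 at 12 DAP for *smk7a* over WT, against 0.53 and 0.48 over all genes.

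*CRR1* is also 1 of 7 genes that the annotation places in the plant hormone signal transduction pathway. Of the other 6, none of 2 tested was called in limma at 20 DAP, both with an unadjusted p below 0.05, where 15.8% of all genes tested were called. At 12 DAP 2 of 4 were called higher in *smk7a*, against 18.6% of all genes tested. They were *Zm00001d002029* (TIFY 3B, a jasmonate signalling repressor), with a log2 change of 1.07 (adjusted p = 0.00219 in limma), and *Zm00001d002143* (transcription factor TGA4), with a difference of 1.51 and no p given, because it exceeded 1 FPKM only in the 3 *smk7a* samples and so entered the fit through its high group alone. The call of *Zm00001d002029* was lost without the second WT sample (log2 0.92). After scaling neither was called (0.59 and 1.08), and *Zm00001d001961*, a small auxin up RNA gene, was called lower (log2 -1.12, adjusted p = 0.0412 in limma). *Zm00001d001964*, another small auxin up RNA gene, was at 0.166, 1.23 and 0.159 FPKM at 20 DAP and 3.08, 2.96 and 3.21 FPKM at 12 DAP in *smk7a*. In WT it was at 0, 0 and 0.543 FPKM at 20 DAP and 3.14, 4.07 and 1.84 FPKM at 12 DAP. It was thus lower at 20 DAP in both genotypes, where *CRR1* was lower too, but it passed the filter through the 12 DAP samples, alone in WT and with 1 other sample in *smk7a*, so no p is given. The list of 57 genes with terms of other hormones shares 5 genes with this pathway. Of its genes, 5 of 31 tested were higher and 1 lower in *smk7a* at 20 DAP, beside 14.3% and 1.49% of all genes tested, and 8 of 30 were higher and 1 lower at 12 DAP, beside 18.6% and 4.11%. After scaling these counts were 1 and 2 at 20 DAP, beside 13 and 15 of all 336 genes tested, and 0 and 3 at 12 DAP, beside 28 and 30 of all 365.

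The identity of the pair has 2 limits. The RefSeq gene table for assembly Zm-B73-REFERENCE-NAM-5.0 lists a close relative of *cZOG1*, named *CISZOG2*. None of the 720 genes lists that name, so how reads shared between *cZOG1* and *CISZOG2* were assigned is not known. The deposited annotation of *CRR1* carries the synonym *RR6* of a rice gene, a symbol that RefSeq also gives to a maize gene. No identifier linked that maize gene to *CRR1* or set it apart, so the symbol is not used here.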

How the data were processed

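Whole kernels of *smk7a* and WT at 20 and 12 DAP were sequenced, with 3 replicates in each of 4 groups, and groups were taken from the sample labels. The submitters' processing notes name Trimmomatic and HISAT2, and the study's methods give mapping to the B73 RefGen_V4 genome. The authors deposited FPKM per gene, and the program that made them is not given in the sources used here. The table analysed ends inside the annotation of its gene 720. The scaling and the shares of all genes tested therefore cover only this part of the genome. It held 0 unused value columns. FPKM hold no read totals, so the depth in reads is unknown and no counting interval is given. The labels do not say how many ears or kernels a replicate holds, so p-values measure only the spread between these samples.

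The members and gene lists were chosen with earlier results of these data known. Genes that exceeded 1 FPKM in 3 or more samples entering a comparison were fitted on log2(FPKM + 0.1) with limma 3.58.1 in R 4.3.3 (lmFit, eBayes with a variance trend), with Benjamini-Hochberg adjustment over all genes tested, and called at an adjusted p below 0.05 and a fold change above 2. Since 0.1 is added, fold changes of low genes are understated. All adjusted p-values are from limma. The comparisons were *smk7a* over WT at each stage, 20 over 12 DAP in each genotype, and the difference of the 2 stage changes over 12 samples. No p-value is given for *cZOG1* or *CRR1*, nor for a named gene that passed the filter only or mainly through the group where it was high. The genes named are the pair, every cytokinin-annotated gene tested and the 3 nearest profiles of each of the pair, with exceptions marked. Up to 4 called genes of each other list per comparison were open to naming. From the list of other hormones, only *Zm00001d002089* and genes shared with the hormone signal transduction pathway are named, and the rest enter as counts. On simulated data of 336 genes for *smk7a* over WT at 20 DAP, 98.1% of genes changed by 2 on the log2 scale were recovered. The changes were set in 60 genes, up and down in equal number, and the other genes were not shifted. Recovery near 2-fold, or under the shift of the deposited values, was therefore not tested. Alternatives were other pseudocounts and filters, median of ratios scaling, the replicate block, 1 fit over 12 samples, no variance trend, no fold threshold and leaving out each replicate. Of 720 identifiers, 0 matched the RefSeq table, whose assembly differs, so no coordinates or sequences are given. Tables were made with Python 3.11.15 and pandas 2.3.3, and figures with matplotlib 3.10.9.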

Additional observations from a re-analysis of the deposited data

Results flagged for a closer look

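The stage change of *cZOG1* (*Zm00001d000237*) had opposite signs in the 2 genotypes, with every 20 DAP sample above every 12 DAP sample in *smk7a* and the reverse in WT, and a difference of 3.72 on the log2 scale that was not tested. *Zm00001d000134*, the other cytokinin gene with this pattern, had a difference between its stage changes of 4.40, positive when the change was higher in *smk7a*. No p is given for it, since it passed the filter on low FPKM only through the groups where it was high. *Zm00001d001961*, a small auxin up RNA gene, had a difference of 1.25 (adjusted p = 0.0244 in limma). Scaled by median of ratios, the difference was 1.15 (adjusted p = 0.054), and the call as deposited was lost on leaving out the first or second *smk7a* sample or the first WT sample at 20 DAP (adjusted p = 0.0543, 0.0588 and 0.0595) or the third WT sample at 12 DAP (log2 0.99). The UDP-glycosyltransferase 89B1 gene *Zm00001d002063* and its neighbour *Zm00001d002064* had differences of -1.02 (adjusted p = 0.0179) and -1.13 (adjusted p = 0.0477), both above the threshold with the replicate block (adjusted p = 0.067 and 0.0639), and leaving out 1 sample ended the call in 4 of 12 and 8 of 12 cases (ranges -1.15 to -0.82 and -1.35 to -0.83, the smallest without the first *smk7a* sample at 20 DAP and the second *smk7a* sample at 12 DAP). *Zm00001d002089*, annotated as a tetratricopeptide repeat-like protein with a term of another hormone, had a difference of 1.27. With 3 samples in each group, no sample was tested for standing apart.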

How the results depend on the processing

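With a pseudocount of 1 the log2 fold changes of *cZOG1* were 1.88 for *smk7a* over WT at 20 DAP, 1.45 and -1.08 for 20 over 12 DAP in *smk7a* and WT, and 2.54 for the stage difference, and those of *CRR1* were 0.52 at 20 DAP, -1.90 in *smk7a*, -1.90 in WT and -0.005 for the stage difference, which changed sign. Under median of ratios scaling *CRR1* was at 0.52, -2.07 and -2.40 in the first 3 of these. Leaving out each replicate in turn gave 2.47 to 3.21 at 20 DAP, -1.24 to -0.63 at 12 DAP, 1.62 to 2.22 in *smk7a*, -2.22 to -1.48 in WT and 3.39 to 4.18 for the stage difference of *cZOG1*, and 0.89 to 1.15, 0.33 to 0.84, -2.65 to -2.23, -3.19 to -2.68 and 0.18 to 0.70 for *CRR1*. Called genes numbered 53 at 20 DAP, 83 at 12 DAP, 70 between stages in *smk7a*, 61 in WT and 45 for the stage difference. Without a fold threshold they were 235, 187, 192, 210 and 79. Under median of ratios scaling they were 28 at 20 DAP (13 higher, 15 lower), 58 at 12 DAP (28 higher, 30 lower), 43 in *smk7a* (18 higher, 25 lower) and 32 in WT (17 higher, 15 lower), against 48 and 5, 68 and 15, 11 and 59, and 7 and 54 as deposited. With a pseudocount of 1 they were 33 at 20 DAP and 33 in WT, and with more than 1 FPKM required in all samples 39 in WT. Leaving out replicates gave 45 to 64, 74 to 86, 54 to 68, 47 to 66 and 36 to 49. Replicates share numbers between groups, but the deviations of same-numbered samples correlated at -0.295 to 0.171, so the numbers were not taken as pairs. The fit with the replicate block called 53, 83, 70, 61 and 37 genes. After scaling *Zm00001d000314* changed sign at 20 DAP (-0.017), at 12 DAP (-0.35) and between stages in *smk7a* (0.19), and *Zm00001d002122* at 12 DAP (-0.33) and between stages in *smk7a* (0.27). Over all genes open to naming besides the pair, which include these cytokinin genes and some not named here, 475 results stayed as they were, called or not called. Of the rest, 70 lost a call, and the 5 that changed sign are those just listed. The causes were not tested. Values of *CRR1* in WT at 20 DAP and of *Zm00001d000134* in *smk7a* at 12 DAP lie below 1 FPKM, where the number of fragments is unknown.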
